A study of Mus musculus with 4 samples.

Results

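The genes described here encode subunits of respiratory chain complex I (NADH:ubiquinone oxidoreductase) and proteins that carry the same Nduf names. They were chosen by symbol, as every probe that the series' probe table names Nduf followed by a, b, c, s or v. This gave 36 probes for 35 genes, of 16383 genes with a named probe, with Ndufs5 read by a pair of probes. Ndufa4l2, a relative of Ndufa4 that the table lists as BC064011, is given as an extra and is left out of every count. All 35 genes were above the detection limit on all 4 arrays. A further 4 complex I genes, Ndufv3, Ndufaf4, Ndufaf5 and Ndufaf7, stand in the table under older names that the choice by symbol did not reach, and they are given apart.

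RNA came from tissue labelled as dorsal raphe nucleus of male C57BL/6J mice aged 10 weeks, and each of 4 single-colour arrays carried 1 pool of 5 mice. The groups were stressed D2LR-KO mice, which lack the long form of the dopamine D2 receptor, stressed D2R-KO mice, which lack the whole receptor, forced-swim-stressed wild-type mice (stressed WT) and wild-type mice without stress (non-stressed WT). The stress was a swim of 6 min on 4 consecutive days, with dissection 12 h after the last. No array holds a knockout without stress, so each knockout differs from non-stressed WT in both genotype and stress. Since a group is a single array, the values below carry no replicate spread and the differences no test, and precision is limited by there being 1 array each. A microarray of a dissected region cannot tell fewer cells of a type from less RNA per cell.

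Complex I takes electrons from NADH, passes them along iron-sulfur clusters to ubiquinone and moves protons across the inner mitochondrial membrane. Its matrix arm holds the N module, which oxidises NADH, and the Q module, which reduces ubiquinone, and its membrane arm holds the proton pumps. Neurons depend on it heavily for their ATP, and inherited defects of its subunits cause encephalopathies such as Leigh syndrome. The subunits encoded in the nucleus are either catalytic core subunits, shared with bacteria, or accessory subunits, and the subunits encoded in mitochondrial DNA are not analysed here.

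Ndufb4, Ndufb11, Ndufs6 and Ndufs3 differed most between the arrays, and the RefSeq promoter windows of these 4 genes are shown because the values below turn on them. Each window holds 250 bases before and 50 after the transcript start in build GRCm38.p6, and all 4 lie on the minus strand, namely chr16:37654319-37654618 for Ndufb4, chrX:20617570-20617869 for Ndufb11, chr13:73328433-73328732 for Ndufs6 and chr2:90904672-90904971 for Ndufs3. They are written 5′ to 3′, and capitals mark matches on either strand to TGCGCA, the core of the motif of nuclear respiratory factor NRF-1, and to CCGGAAG, a form of the ETS motif that GABP binds.
Ndufb4: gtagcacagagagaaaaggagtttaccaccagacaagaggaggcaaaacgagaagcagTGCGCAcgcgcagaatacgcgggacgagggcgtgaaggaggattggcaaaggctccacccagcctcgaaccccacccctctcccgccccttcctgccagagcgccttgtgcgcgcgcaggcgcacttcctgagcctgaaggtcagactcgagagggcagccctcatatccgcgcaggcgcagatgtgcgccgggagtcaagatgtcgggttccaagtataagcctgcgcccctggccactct
Ndufb11: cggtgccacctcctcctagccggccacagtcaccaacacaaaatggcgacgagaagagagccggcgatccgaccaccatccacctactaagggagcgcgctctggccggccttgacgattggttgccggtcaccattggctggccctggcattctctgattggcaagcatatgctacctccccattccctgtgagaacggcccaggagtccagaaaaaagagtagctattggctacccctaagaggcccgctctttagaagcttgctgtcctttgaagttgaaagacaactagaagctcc
Ndufs6: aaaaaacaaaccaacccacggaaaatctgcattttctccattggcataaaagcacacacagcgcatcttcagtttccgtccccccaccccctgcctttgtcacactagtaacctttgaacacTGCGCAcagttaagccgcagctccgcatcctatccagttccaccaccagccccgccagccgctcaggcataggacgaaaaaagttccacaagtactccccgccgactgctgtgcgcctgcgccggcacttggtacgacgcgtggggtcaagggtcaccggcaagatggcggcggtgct
Ndufs3: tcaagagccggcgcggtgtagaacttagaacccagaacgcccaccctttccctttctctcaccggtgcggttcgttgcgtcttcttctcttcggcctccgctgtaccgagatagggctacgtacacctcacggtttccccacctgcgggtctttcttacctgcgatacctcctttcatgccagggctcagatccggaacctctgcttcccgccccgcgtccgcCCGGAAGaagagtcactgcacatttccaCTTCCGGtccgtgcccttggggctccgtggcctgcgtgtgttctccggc
The NRF-1 core stood once in the window of Ndufb4 and once in that of Ndufs6, the ETS form stood at 2 places in that of Ndufs3, and Ndufb11 had neither. These matches did not overlap. Of the 35 genes 32 had a window, and 9 of those 32 (28.1%) held the NRF-1 core, against 8.06% of 27025 windows of all genes. The ETS form was in 4 of 32 (12.5%), against 9.12% of all windows. A match describes these letters only.

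The values come in 2 scales. Deposited intensities are the authors' linear values, scaled so that the median of every array is 25, and log2 levels are quantile-normalized values on the log2(signal + 50) scale, from which all differences below are taken. Levels of different genes were not compared, since each has its own probe. The 4 arrays had detection rates of 91.0% to 91.6%. The upper part of the intensity distribution was lower on the stressed WT array, the 90th percentile being 387.26 in D2LR-KO, 423.6 in D2R-KO, 304.67 in stressed WT and 382.65 in non-stressed WT. Quantile normalization removes that gap and the deposited scale keeps it. Most complex I genes are bright, and the medians of their differences from stressed WT are larger as deposited than after normalization. Each difference below is from the quantile-normalized levels, with the blank spots as background, unless another setting is named. When the background was taken around each spot instead (local background), the difference had the opposite sign for 12 of the 35 genes in stressed against non-stressed WT, for 13 in D2R-KO and 11 in D2LR-KO against non-stressed WT, for 5 in D2R-KO and 6 in D2LR-KO against stressed WT, and for 19 in D2LR-KO against D2R-KO. The local background was not independent of the spot. Over all genes the log2 brightness of spot and surroundings correlated at a Pearson r of 0.866 to 0.955 on the 4 arrays. Differences under local background are therefore given as a check on processing and not as an equal reading. Of 7 markers of serotonergic neurons 3 were at least 1.5-fold higher in each knockout than in stressed WT, and 0 lower. Over all genes 8.72% were higher in D2LR-KO and 9.31% in D2R-KO. Tph2, the neuronal enzyme of serotonin synthesis, had 151.5 in D2LR-KO, 264.6 in D2R-KO, 10.7 in stressed WT and 31.4 in non-stressed WT. Maob, which encodes monoamine oxidase B, had 182.0 in D2LR-KO, 221.5 in D2R-KO, 218.4 in stressed WT and 216.5 in non-stressed WT.

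On the deposited scale most complex I genes were lowest on the stressed WT array. There 30 of 35 genes had their lowest intensity of the 4 arrays, and on the D2R-KO array 24 had their highest. Such shares over all genes were not counted on this scale. Its 90th percentile over all genes was likewise lowest in stressed WT, at 304.67, and highest in D2R-KO, at 423.6. The median intensity of the 35 genes was 1769.9 in D2LR-KO, 1876.6 in D2R-KO, 1135.0 in stressed WT and 1516.9 in non-stressed WT. After quantile normalization 18 of 35 were lowest and 8 highest in stressed WT, against 37.3% and 39.9% of all genes, so that array was at one extreme for most genes of any kind. On this scale the median log2 level was 11.51 in D2LR-KO, 11.45 in D2R-KO, 11.31 in stressed WT and 11.37 in non-stressed WT.

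**Figure D1:**
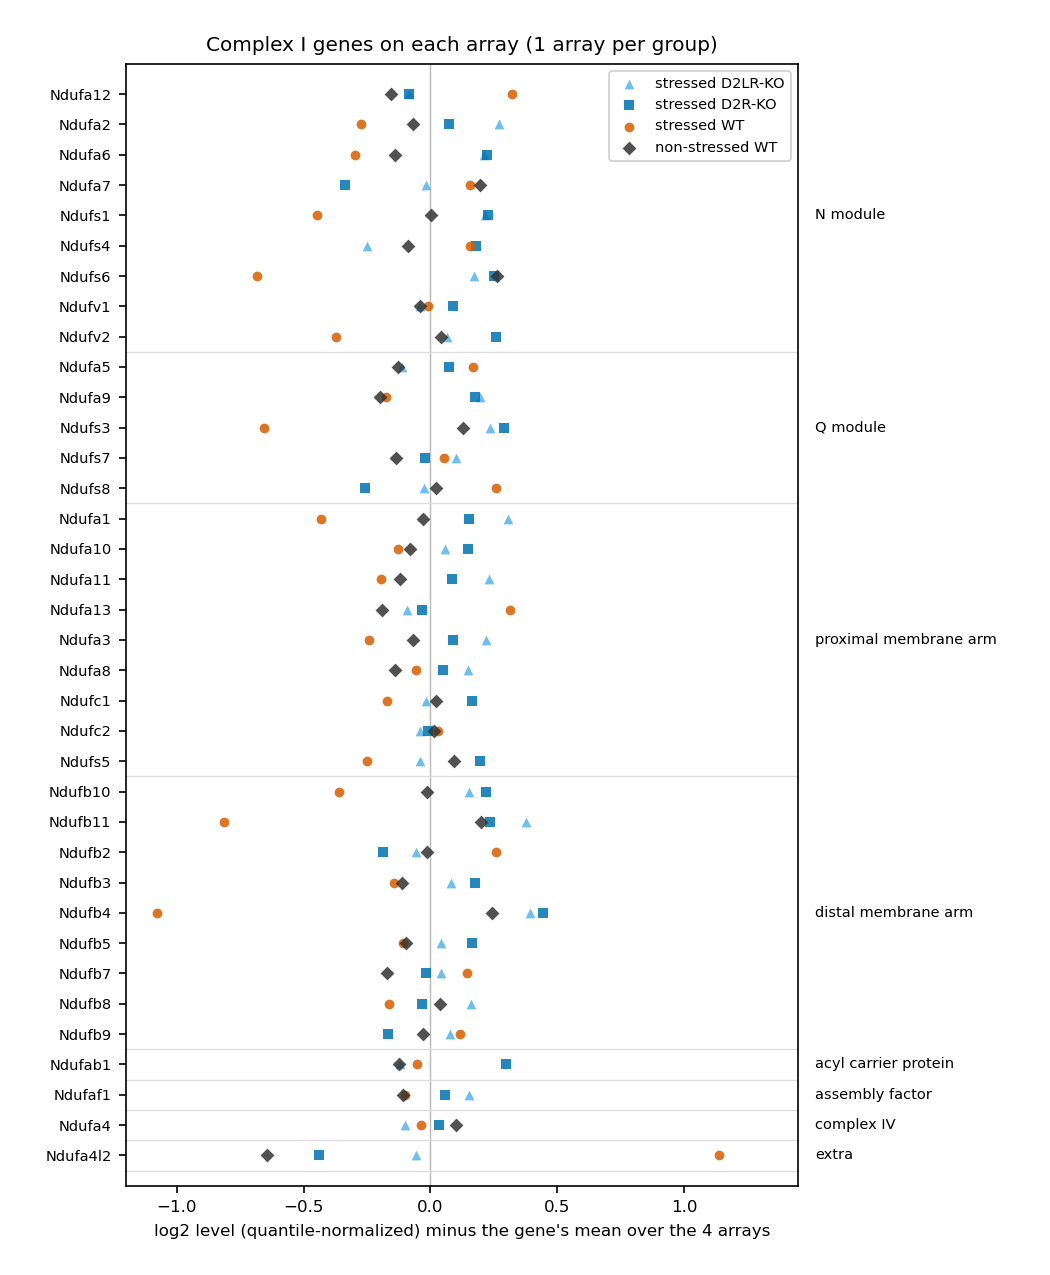
Each row is 1 gene, grouped by its place in complex I, and each point is its quantile-normalized log2 level on 1 array minus the gene's mean over the 4 arrays. The stressed WT points spread widest to both sides, with Ndufb4, Ndufb11, Ndufs6 and Ndufs3 far to the left and Ndufa4l2 far to the right.

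The 35 genes include 6 core subunits of the matrix arm. Ndufv1, which binds NADH and the flavin, had deposited intensities of 1446.0 in D2LR-KO, 1737.7 in D2R-KO, 1106.6 in stressed WT and 1377.0 in non-stressed WT. Its log2 level ranged by only 0.13 over the 4 arrays, the second steadiest of the 35 genes, but under local background it stood at 1.13 in stressed against non-stressed WT. Ndufv2, its partner in the N module, which carries an iron-sulfur cluster, had 4720.1 in D2LR-KO, 5819.1 in D2R-KO, 2500.7 in stressed WT and 4402.9 in non-stressed WT. It was lowest in stressed WT, by 0.42 on the log2 scale against non-stressed WT, and D2R-KO exceeded stressed WT by 0.63. Ndufs1, the large subunit with most of the N module's clusters, had 596.6 in D2LR-KO, 657.0 in D2R-KO, 284.7 in stressed WT and 494.6 in non-stressed WT. Its level in stressed WT lay below the other 3 arrays, with a log2 difference of -0.45 from non-stressed WT, which turned to 0.80 under local background.

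In the Q module the core subunits did not share a pattern. Ndufs3, one of the first subunits to assemble, had 1368.9 in D2LR-KO, 1565.7 in D2R-KO, 549.5 in stressed WT and 1225.5 in non-stressed WT, and its log2 difference for stressed against non-stressed WT was -0.79. Ndufs7 and Ndufs8 hold the last clusters before ubiquinone. Ndufs7 had 1607.7 in D2LR-KO, 1598.7 in D2R-KO, 1135.0 in stressed WT and 1285.6 in non-stressed WT and a log2 range of 0.24. Ndufs8 had 673.1 in D2LR-KO, 614.8 in D2R-KO, 633.2 in stressed WT and 653.9 in non-stressed WT, nearly level as deposited. After normalization Ndufs8 was 0.24 higher in stressed WT than in non-stressed WT and 0.52 lower in D2R-KO than in stressed WT. The accessory subunits Ndufa5 and Ndufa9 stayed within 1.5-fold in all 6 comparisons after quantile normalization. Ndufa9 had 1430.1 in D2LR-KO, 1556.6 in D2R-KO, 823.5 in stressed WT and 1041.3 in non-stressed WT, and was higher than in non-stressed WT by 0.40 in D2LR-KO and 0.37 in D2R-KO. Those differences were 2.47 and 3.09 under local background.

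The accessory subunits of the N module split in the same way. Ndufs6, which carries a zinc site near the junction of the N and Q modules, had 2189.4 in D2LR-KO, 2523.1 in D2R-KO, 885.8 in stressed WT and 2178.7 in non-stressed WT. The stressed WT value was the lowest, and the other 3 lay close together. Ndufs4, whose loss in mice gives a Leigh-like disease, had 1189.5 in D2LR-KO, 1769.5 in D2R-KO, 1181.4 in stressed WT and 1276.1 in non-stressed WT, and was highest in D2R-KO as deposited. Its largest log2 difference was -0.43, for D2LR-KO against D2R-KO, which was 0.04 under local background. Ndufa7 had 1664.7 in D2LR-KO, 1441.2 in D2R-KO, 1373.1 in stressed WT and 1783.4 in non-stressed WT, with the largest difference of any complex I gene for D2R-KO against non-stressed WT, at -0.53, which turned to 0.58 under local background. Ndufa12, by contrast, had 3853.6 in D2LR-KO, 4305.0 in D2R-KO, 3718.3 in stressed WT and 3461.2 in non-stressed WT and was 0.48 higher in stressed than in non-stressed WT after normalization. Ndufa2 had 2818.6 in D2LR-KO, 2649.3 in D2R-KO, 1429.5 in stressed WT and 2052.7 in non-stressed WT. Ndufa6 had 1463 in D2LR-KO, 1615.8 in D2R-KO, 760.2 in stressed WT and 1097.7 in non-stressed WT. Both were lowest in stressed WT as deposited, and within 1.5-fold in all 6 comparisons after quantile normalization, where D2LR-KO exceeded non-stressed WT by 0.34 for Ndufa2 and 0.35 for Ndufa6. For Ndufa2 that difference was 2.48 under local background.

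The membrane arm was read through 18 accessory subunits, 9 in the proximal and 9 in the distal part. In the distal part Ndufb4 had 937.7 in D2LR-KO, 1072.3 in D2R-KO, 247.8 in stressed WT and 802.8 in non-stressed WT. Its log2 range of 1.52 was the widest of the 35 genes. Ndufb11, an X-linked subunit mutated in human mitochondrial disease, had 161.3 in D2LR-KO, 152.5 in D2R-KO, 48.7 in stressed WT and 138.5 in non-stressed WT. Both genes were low on the stressed WT array alone. The remaining 7 distal subunits (Ndufb2, Ndufb3, Ndufb5, Ndufb7, Ndufb8, Ndufb9 and Ndufb10) stayed within 1.5-fold in all 6 comparisons after quantile normalization. Among them Ndufb3 had 1932.4 in D2LR-KO, 2230.7 in D2R-KO, 1194.3 in stressed WT and 1587.9 in non-stressed WT. As deposited, Ndufb10 was 1.14 higher in D2R-KO than in stressed WT on the log2 scale. RefSeq also holds further copies close in name to some of these genes, such as Ndufb4b, Ndufb4c and Ndufs6b, and whether the probes read them too is not known here.

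In the proximal part Ndufa1, a small X-linked subunit, had 2482.4 in D2LR-KO, 2481.4 in D2R-KO, 1115.9 in stressed WT and 1871.3 in non-stressed WT. Its log2 difference from stressed WT was 0.59 for D2R-KO, barely past 1.5-fold, and 0.74 for D2LR-KO. Ndufa13, also known as GRIM-19, had 3545.9 in D2LR-KO, 4083.0 in D2R-KO, 3355.2 in stressed WT and 3105.2 in non-stressed WT. It was 0.50 higher in stressed than in non-stressed WT after normalization. Ndufa11 had 2043.2 in D2LR-KO, 2045.8 in D2R-KO, 1125.3 in stressed WT and 1516.9 in non-stressed WT, and Ndufa8 had 2979 in D2LR-KO, 2977.9 in D2R-KO, 1928.1 in stressed WT and 2222.5 in non-stressed WT. As deposited the knockouts were nearly level with each other for both genes and above both WT arrays. Ndufc2 was the steadiest gene of all, with a log2 range of 0.07 and intensities of 3310.4 in D2LR-KO, 3711.9 in D2R-KO, 2469.5 in stressed WT and 3165.4 in non-stressed WT. The pair of Ndufs5 probes had the same direction for stressed against non-stressed WT, at -0.34 and -0.14, but parted when D2LR-KO was set against non-stressed WT, at -0.14 and 0.25. Ndufa3 and Ndufc1 were dim, at 8.2 to 26.8 on all arrays, where the offset shrinks differences.

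The remaining names stand apart from the arms. Ndufab1, the mitochondrial acyl carrier protein and a complex I subunit, was dim, at 21.1 in D2LR-KO, 39.3 in D2R-KO, 23.8 in stressed WT and 21.1 in non-stressed WT. It was highest in D2R-KO, by 0.42 on the log2 scale against non-stressed WT, or 0.13 under local background. Ndufaf1, an assembly factor of the membrane arm, had 310.2 in D2LR-KO, 315.5 in D2R-KO, 204.0 in stressed WT and 248.5 in non-stressed WT, and its log2 difference between stressed and non-stressed WT was 0.01, or 1.54 under local background. Ndufa4, first described in complex I and since assigned to complex IV, had 4965.3 in D2LR-KO, 5796.4 in D2R-KO, 3769.9 in stressed WT and 5047.6 in non-stressed WT. With a log2 range of 0.20 it was the third steadiest gene, but it stood at 0.65 in stressed against non-stressed WT under local background.

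As deposited, Ndufa4l2 had 830.1 in D2LR-KO, 694.7 in D2R-KO, 1483.7 in stressed WT and 527.6 in non-stressed WT. Stressed WT, the lowest array for its relative Ndufa4, was the highest, and non-stressed WT was the lowest. Under local background stressed WT exceeded non-stressed WT by 1.22 for Ndufa4l2 and 0.65 for Ndufa4. In that setting Ndufa4l2 was at -0.86 in D2R-KO and -0.11 in D2LR-KO against non-stressed WT. After quantile normalization stressed D2R-KO and D2LR-KO were lower than stressed WT by 1.58 and 1.19 on the log2 scale. In other cells hypoxia-inducible factor switches this gene on, so 8 further hypoxia targets with a probe were read beside it. After quantile normalization none of the 8 was past 1.5-fold in stressed against non-stressed WT, where 7.28% of all genes were higher and 8.11% lower. Their median was -0.25, with Adm, adrenomedullin, at -0.49. Vegfa, Egln3, Pdk1, Car9, Adm and Ankrd37 were dim, at 5 to 52.2 as deposited on both WT arrays, where the offset shrinks differences. Adm had 6.8 in stressed WT and 20.2 in non-stressed WT. Under local background 1 was higher, the glucose transporter gene Slc2a1 at 2.56, and 1 lower, Ldha, lactate dehydrogenase A, which stood at -0.81 there and at 0.38 after quantile normalization. As deposited 5 of the 8 were at least 1.5-fold lower, where 3742 of 15231 genes were.

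**Figure D2:**
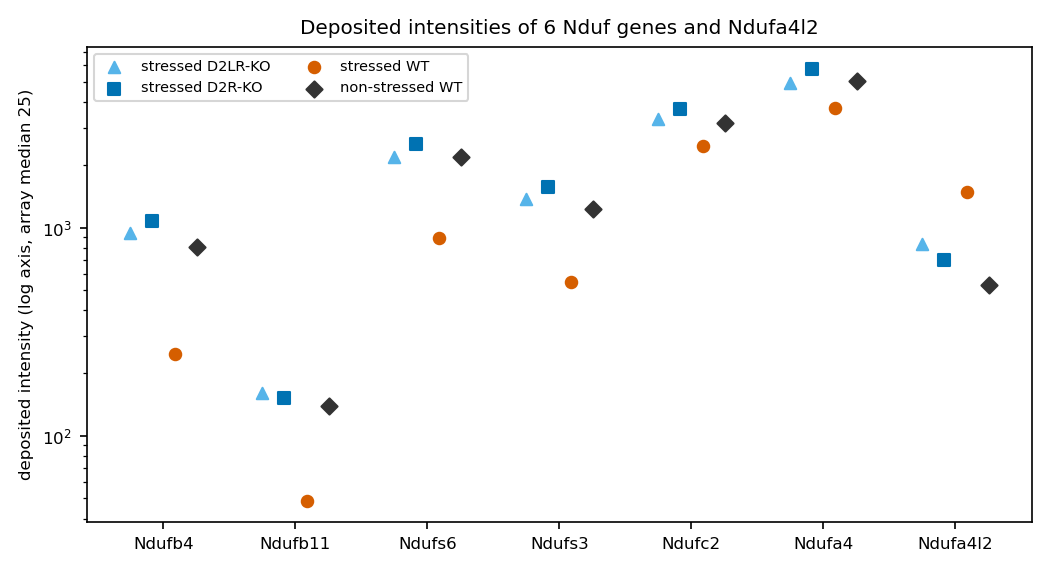
Deposited intensity on a log axis for 6 of the 35 genes and the extra Ndufa4l2, with 1 point per array. Ndufb4, Ndufb11, Ndufs6 and Ndufs3 are low in stressed WT and close together on the other 3 arrays, Ndufc2 and Ndufa4 spread less, and Ndufa4l2 is highest in stressed WT.

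Stressed WT against non-stressed WT asks what differs after forced swimming within 1 genotype. Of the 35 genes 4 were at least 1.5-fold lower and 0 at least 1.5-fold higher, where 8.11% and 7.28% of 15643 genes compared were. Ndufb4 was 2.50-fold lower, Ndufb11 2.02-fold, Ndufs6 1.93-fold and Ndufs3 1.73-fold. They belong to the distal membrane arm, the N module and the Q module. The gene next in size, Ndufa13 at 0.50, was higher. The 4 lower genes are 11.4% of the 35, between the share of all genes and the 17.9% lower among 1066 genes with a mean log2 level of at least 10. The median of the 35 was -0.04, beside 0.00 for all genes, with 20 genes below 0 and 15 above. On the deposited scale 32 of 35 were lower in stressed WT, by a median ratio of 0.770, beside 0.965 for all genes. That scale keeps the lower upper part of the stressed WT distribution, where most complex I genes lie. Scaling each array to 1 median moved the count to 16 lower and 0 higher, and the share of higher genes among all genes past 1.5-fold to 14.0%, against 47.3%. With that scaling 2586 of the 15643 genes were lower and 421 higher. Ndufa12, Ndufa13 and Ndufs8, higher in stressed WT after quantile normalization, were then at -0.12, -0.11 and -0.25. Under local background Ndufa12 and Ndufs8 stayed higher, at 2.43 and 0.26, and Ndufa13 was at -1.30.

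For stressed D2R-KO, set against non-stressed WT, both genotype and stress differ. None of the 35 genes was past 1.5-fold, where 2.06% of 15607 genes were. Under local background 16 were past it, 13 higher and 3 lower, where 1096 of the 15607 genes were higher and 786 lower. The differences were small and mostly upward, with 27 above 0 and 8 below and a median of 0.16, beside 0.01 for all genes. Ndufab1, Ndufa9, Ndufa6 and Ndufb3 led the higher side at 0.42, 0.37, 0.36 and 0.29. Ndufa7 at -0.53 and Ndufs8 at -0.28 led the lower side. The median stayed above 0 under the 5 alternatives, between 0.16 and 0.47, although the detection alternative could not change it.

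For stressed D2LR-KO, too, genotype and stress both differ from non-stressed WT. None of the 35 genes was past 1.5-fold, where 2.15% of 15574 genes were, and 26 were above 0 and 9 below, with a median of 0.12 beside 0.00 for all genes. Under local background 14 were past 1.5-fold, 12 higher and 2 lower, where 1082 of the 15574 genes were higher and 743 lower. The leading genes, all higher, were Ndufa9 at 0.40, Ndufa6 at 0.35, Ndufa11 at 0.35, Ndufa2 at 0.34, Ndufa1 at 0.33 and Ndufa8 at 0.29. With the arrays scaled to 1 median this median was -0.02. Both knockout comparisons use the non-stressed WT array, which they share.

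Stressed D2R-KO against stressed WT asks what differs with genotype among stressed mice, and shares its stressed WT array with the first comparison. Here 7 of the 35 were higher by 1.5-fold or more and 0 lower, beside 9.31% and 8.64% of 15655 genes. Ndufb4 was 2.88-fold higher, Ndufb11 2.07-fold, Ndufs3 1.93-fold, Ndufs6 1.91-fold, Ndufs1 1.60-fold and Ndufv2 1.55-fold, followed by Ndufa1. These 7 genes are 20.0% of the 35, close to the 20.9% higher among the bright genes. Of the 6 core subunits 3 were among them. Under local background 3 of the 7 stayed past 1.5-fold. The median of the 35 was 0.28, beside -0.01 for all genes and 0.05 for the bright genes. On the deposited scale, which keeps the gap among bright genes, 33 of 35 were higher in D2R-KO. The median ratio was 1.70, beside 1.08 for all genes.

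Stressed D2LR-KO against stressed WT had 6 of 35 genes higher by 1.5-fold or more and 0 lower, beside 8.72% and 8.20% of 15640 genes. Ndufb4 was 2.77-fold higher, Ndufb11 2.28-fold, Ndufs3 1.86-fold, Ndufs6 1.81-fold, Ndufa1 1.67-fold and Ndufs1 1.58-fold. These 6 genes are 17.1% of the 35, beside 17.4% higher among the bright genes. Under local background 3 of the 6 stayed past 1.5-fold. The median of the 35 was 0.21, beside -0.01 for all genes. The deposited ratio had a median of 1.52, with 33 of 35 genes higher in D2LR-KO. Just short of 1.5-fold lay Ndufa2 at 0.54, as did Ndufb10 at 0.58 in the comparison of D2R-KO with stressed WT.

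Stressed D2LR-KO against stressed D2R-KO compares both forms of receptor loss. None of the 35 genes was past 1.5-fold, where 0.666% of 15606 genes were higher and 0.333% lower, and the median was -0.01, beside 0.00 for all genes. Under local background 5 were past 1.5-fold, 2 higher and 3 lower, where 468 of the 15606 genes were higher and 386 lower. The leading genes were Ndufs4 at -0.43, Ndufab1 at -0.42 and Ndufa7 at 0.32.

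**Figure D3:**
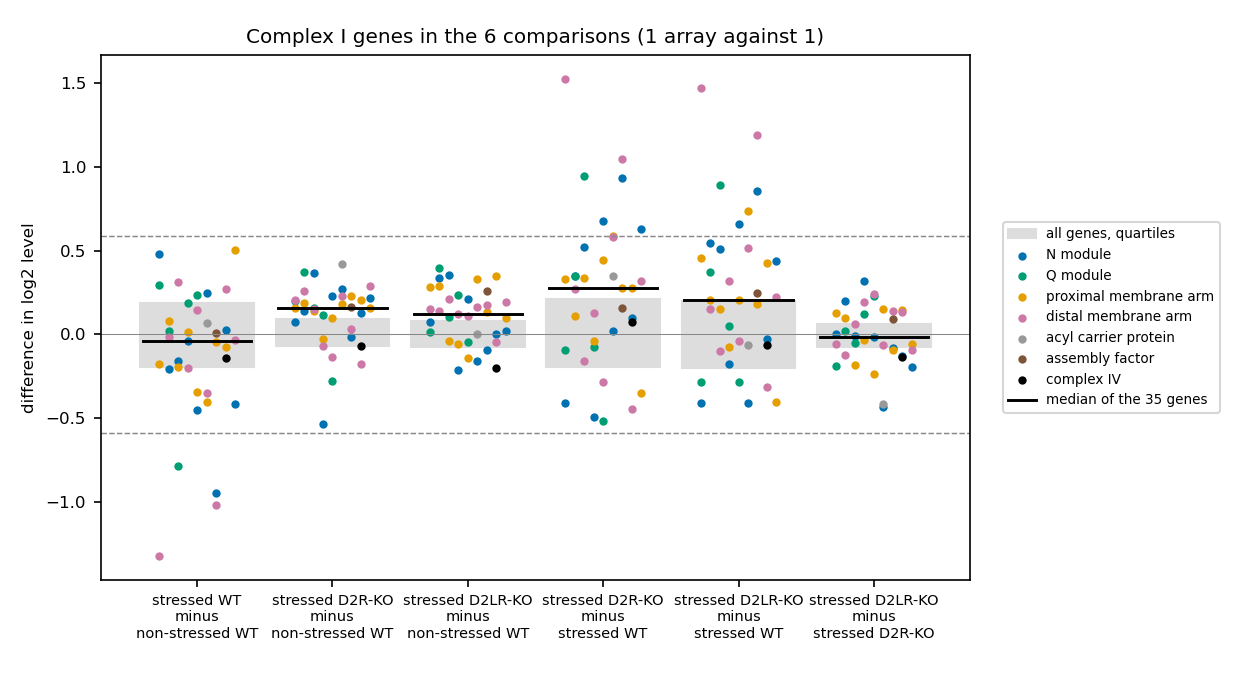
Difference in quantile-normalized log2 level for each of the 35 genes in the 6 comparisons, coloured by place in the complex, with a black line at their median, a grey box from the lower to the upper quartile of all genes and dashed lines at 1.5-fold. In this setting points lie beyond the dashed lines only where stressed WT is one of the arrays compared.

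The 4 genes under older names were read the same way. Ndufaf7, a methyltransferase needed for assembly, had 270.9 in D2LR-KO, 251.3 in D2R-KO, 105.2 in stressed WT and 240.3 in non-stressed WT, and was lower in stressed than in non-stressed WT by 0.83 on the log2 scale. Ndufaf4, an early assembly factor, had 210.4 in D2LR-KO, 236.4 in D2R-KO, 109.4 in stressed WT and 162.3 in non-stressed WT and differed by -0.28. Ndufv3, an N module subunit, differed by 0.11, and Ndufaf5, another assembly factor, was dim at 2.5 to 4.5.

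Of 9 assembly factors without an Nduf name 7 were measured. In stressed against non-stressed WT, where 7.28% of all genes were higher and 8.11% lower, 2 of the 7 were at least 1.5-fold higher, Tmem186 at 0.93 and Foxred1 at 0.73, and 1 was lower, Tmem70 at -1.42. Under local background Tmem186 was at 0.45 and Foxred1 at 0.51, with arrays scaled to 1 median Foxred1 was at 0.27, and Tmem70 stayed at least 1.5-fold lower in both. Tmem70 had 406.0 in D2LR-KO, 367.9 in D2R-KO, 114.2 in stressed WT and 409.9 in non-stressed WT. None of the 7 was past 1.5-fold in either knockout against non-stressed WT, where 2.06% of all genes were in D2R-KO and 2.15% in D2LR-KO. The 39 genes of complexes II to V and cytochrome c had 14 lower and 4 higher members in stressed against non-stressed WT, beside 17.9% lower and 10.2% higher among the bright genes, with a median of -0.16. With arrays scaled to 1 median 20 were lower and 0 higher, where 2586 of 15643 genes were lower and 421 higher. Under local background 12 were lower and 9 higher, where 1555 of 15643 genes were lower and 1548 higher. Among the lower were the Rieske protein gene Uqcrfs1 of complex III at -1.62 and the ATP synthase gene Atp5g3 at -1.08, and among the higher Cox7c of complex IV at 0.84, which fell short of 1.5-fold in both of those settings. In D2R-KO and D2LR-KO against non-stressed WT 38 of these 39 lay within 1.5-fold, where 2.06% and 2.15% of all genes were past it. The exception was Atp5e at -0.64 and -0.59. Under local background 12 were higher and 4 lower in D2R-KO, and 13 higher and 5 lower in D2LR-KO. Over all genes 1096 of 15607 were higher and 786 lower in D2R-KO under local background. In D2LR-KO 1082 of 15574 were higher and 743 lower.

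Regulators of mitochondrial genes were divided. In stressed against non-stressed WT, Ppargc1a, the coactivator that drives mitochondrial biogenesis, was lower at -1.37, with 229.7 in D2LR-KO, 329.7 in D2R-KO, 71.4 in stressed WT and 258.5 in non-stressed WT. Esrra, its nuclear receptor partner, was lower at -0.75. Gabpa, a subunit of GABP, and Ppargc1b were higher at 0.80 and 0.60. Under local background Esrra turned to 0.34 and Ppargc1b to -0.23. A further probe of Ppargc1a disagreed, at 0.20. Tfam, which maintains mitochondrial DNA, was at -0.43, and Nrf1, which encodes NRF-1, at 0.09. After quantile normalization none of the 6 was past 1.5-fold in either knockout against non-stressed WT, where 2.06% of all genes were in D2R-KO and 2.15% in D2LR-KO. As deposited 1 was higher in each, where 1215 of 15255 genes were in D2R-KO and 927 of 15244 in D2LR-KO.

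Cell type markers also differed between the arrays. The summed deposited intensity of 5 neuronal markers was 10440.5 in D2LR-KO, 13860.6 in D2R-KO, 7004.2 in stressed WT and 11077.8 in non-stressed WT. In stressed against non-stressed WT, where 7.28% of all genes were higher and 8.11% lower, 1 of the 5 was past 1.5-fold, the synaptic gene Snap25 at -1.01. The 7 astrocyte markers summed to 4763.0 in D2LR-KO, 4877.7 in D2R-KO, 2128.0 in stressed WT and 5251.1 in non-stressed WT, with 3 of 7 lower in stressed against non-stressed WT, where 8.11% of all genes were. Among the 3, the gap junction gene Gja1 at -1.08 turned to 3.01 under local background. The 5 choroid plexus markers summed to 217.9 in D2LR-KO, 43.3 in D2R-KO, 5755.5 in stressed WT and 13067.6 in non-stressed WT. Ttr was most of the sum on both WT arrays, at 5720.2 in stressed WT and 12884 in non-stressed WT. Folr1, Kl, Kcne2 and Clic6 were at 2.8 to 13.4 in stressed WT. All 5 were lower in stressed than in non-stressed WT (3 under local background), and all 5 were also lower in each knockout than in non-stressed WT. Over all genes 231 of 15607 were lower in D2R-KO and 219 of 15574 in D2LR-KO. Against stressed WT 1 of 5 was lower in each knockout, where 8.64% of all genes were in D2R-KO and 8.20% in D2LR-KO. It was Ttr, 144.6-fold lower in D2R-KO and 32.5-fold in D2LR-KO. The 4 oligodendrocyte markers summed to 19096.5 in D2LR-KO, 19068.7 in D2R-KO, 14284.7 in stressed WT and 14612 in non-stressed WT, with 1 of 4 higher in stressed against non-stressed WT, the myelin gene Mag at 1.15. The 5 markers of smooth muscle and meninges summed to 3393.5 in D2LR-KO, 1131.1 in D2R-KO, 563.3 in stressed WT and 1144.7 in non-stressed WT. Of these 3 of 5 were lower in stressed WT than in non-stressed WT, and 5 of 5 were higher in D2LR-KO than on each of the other arrays. Over all genes 8.72% were higher in D2LR-KO than in stressed WT, 0.666% than in D2R-KO and 116 of 15574 than in non-stressed WT. All 3 pituitary hormone genes were higher in D2R-KO than on each of the other arrays, with Pomc at 49.6 in D2LR-KO, 283.5 in D2R-KO, 71.5 in stressed WT and 48.9 in non-stressed WT. Over all genes 9.31% were higher in D2R-KO than in stressed WT, 0.333% than in D2LR-KO and 90 of 15607 than in non-stressed WT. The part of these differences in the complex I values was not tested.

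The count and even the direction of the complex I differences depended on how the arrays were put on 1 scale. The medians of all genes stayed within 0.11 of 0, but every setting gives the arrays a common median or distribution. Their steadiness was thus nearly fixed in advance and does not make the dependence particular to complex I. The bright genes as a set were read in the main setting only. Ndufb4, Ndufs6 and Ndufs3 were at least 1.5-fold lower in stressed than in non-stressed WT under all 5 alternatives, and Ndufa4l2 at least 1.5-fold higher. Ndufb11 was at least 1.5-fold lower under 4 of them and stood at 0.23 when background was taken around each spot. The detection alternative could not change any of these values, since each gene was detected on all 4 arrays.

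**Figure D4:**
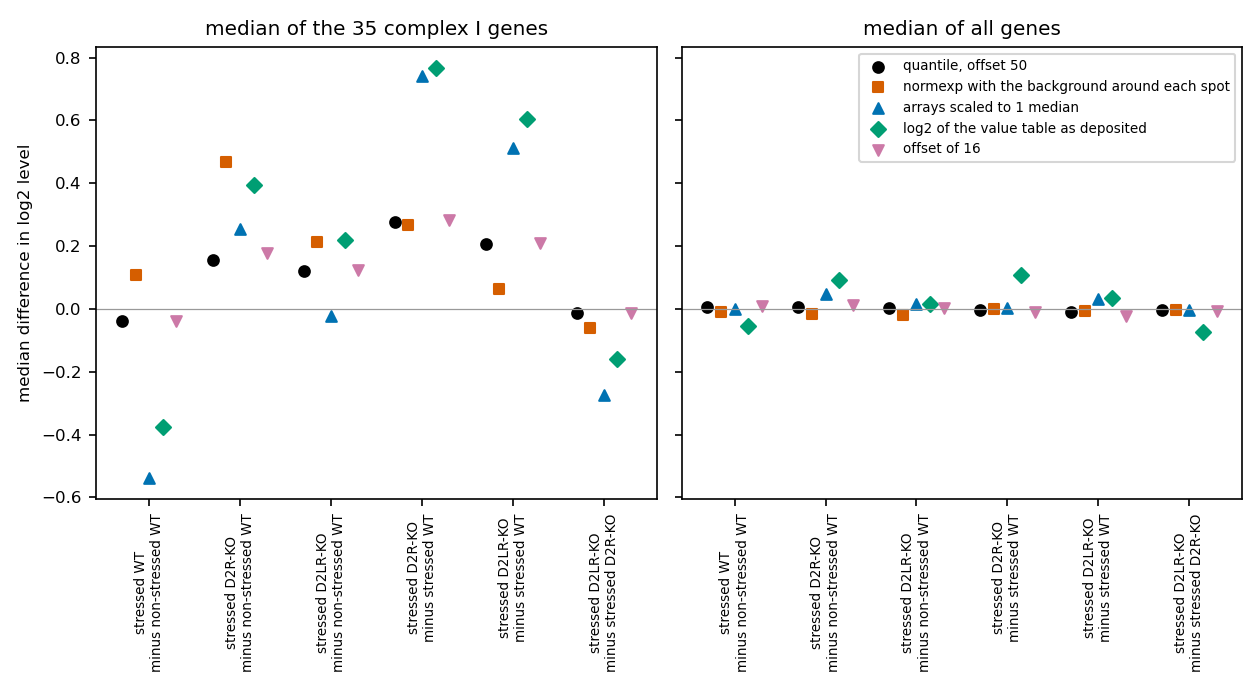
Median difference in log2 level of the 35 complex I genes (left) and of all genes (right) in the 6 comparisons under 5 settings, 1 marker each. The complex I medians of the comparisons with stressed WT move most, from -0.04 to -0.54 for stressed against non-stressed WT when arrays are scaled to 1 median. Those of all genes stay within 0.11 of 0, which the common median or distribution of the arrays nearly fixes.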

How the data were processed

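The 4 scanner files hold each spot's median intensity at 635 nm and that of its surroundings, per the file headers, from 3 scans at different gain, with no background subtracted. The authors' deposited value table holds linear intensity with an array median of 25, with its making not given in the sources used here. Per the labels, RNA was amplified with a MessageAmp II kit and labelled with Cy5. From the spot medians, background was corrected with the blank spots as negative controls (limma 3.58.1, function nec, offset 50) in R 4.3.3, followed by log2 and quantile normalization. A probe was detected above the mean plus 2 SD of the blanks. Unusable spots (9) were left out, and the brightest of several probes stood for a gene. With 1 array per group no test was run: genes detected on at least 1 of the arrays compared were counted past 1.5-fold. The counting, without the detection filter, was checked on simulated shifts well above that limit. That check covers the code and not the reliability of counts from single arrays. All 4 values were given by rule for the core subunits, Ndufab1, Ndufa4, Ndufa4l2, the 6 largest differences in each comparison with a WT array and the steadiest gene. Others named or given with all 4 values, such as Ndufs4, Ndufaf1, Ndufaf7 and Tmem70, were chosen after their values were seen. The members and lists were chosen with earlier results of these data known. The alternatives were 5 settings of background, scaling, value table, offset and detection.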

Additional observations from a re-analysis of the deposited data

Results flagged for a closer look

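Ndufb4, Ndufb11 and Ndufs3 lay on opposite sides of 0 in the knockouts and in stressed WT when each was set against non-stressed WT. Ndufb4 was at 0.15 in D2LR-KO and 0.20 in D2R-KO, whereas stressed WT had -1.32. Ndufb11 was at 0.18 in D2LR-KO and 0.03 in D2R-KO, whereas stressed WT had -1.01. Ndufs3 was at 0.11 in D2LR-KO and 0.16 in D2R-KO, whereas stressed WT had -0.79. Each group is 1 array and all share the non-stressed WT array, so the difference between groups was not tested. The SD of repeated control spots was 0.205 between the D2LR-KO and non-stressed WT arrays and 0.140 between the D2R-KO and non-stressed WT arrays, so Ndufb11 in D2R-KO and all 3 genes in D2LR-KO differed from 0 by less than it. That SD comes from 48 positive control spots before quantile normalization and does not measure the spread between pools of mice. Under local background Ndufs3 was at -0.69 in D2R-KO and Ndufb11 at 0.23 in stressed WT, and with arrays scaled to 1 median Ndufb4 was at -0.02 and Ndufs3 at -0.09 in D2LR-KO, so the opposite signs held in all settings for none of the 3.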

How the results depend on the processing

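Medians of the 35 genes are called moved here when they shifted by more than the SD of repeated control spots between the 2 arrays (0.100 to 0.205). This limit is a convention, since the SD describes positive control spots before quantile normalization and not the spread between pools of mice. With the detection filter on both arrays no median or count moved, nor could it, since all 35 genes were detected on all 4 arrays. With an offset of 16 the medians held, and 1 gene was higher in D2R-KO against non-stressed WT and 1 lower in D2LR-KO against D2R-KO. With arrays scaled to 1 median, the median was -0.54 in stressed against non-stressed WT, with 16 genes lower, 0.74 in D2R-KO against stressed WT, with 25 higher, 0.51 in D2LR-KO against stressed WT, with 15 higher, and -0.28 in D2LR-KO against D2R-KO, with 1 lower. Over all genes the same counts, in that order, were 2586 of 15643, 2900 of 15655, 1876 of 15640 and 316 of 15606. From the values as deposited, the median was -0.38 in stressed against non-stressed WT, with 10 lower, 0.39 in D2R-KO against non-stressed WT, with 1 higher, 0.77 in D2R-KO against stressed WT, with 25 higher, and 0.60 in D2LR-KO against stressed WT, with 18 higher. There 1 gene was higher in D2LR-KO against non-stressed WT and 1 lower in D2LR-KO against D2R-KO. Over all genes as deposited, 3742 of 15231 were lower in stressed against non-stressed WT. Against stressed WT 4456 of 15254 were higher in D2R-KO and 3867 of 15217 in D2LR-KO. Under local background, the median was 0.11 in stressed against non-stressed WT, with 14 higher and 5 lower, where 1548 of 15643 genes were higher and 1555 lower. It was 0.47 in D2R-KO against non-stressed WT, with 13 higher and 3 lower. In that setting 12 were higher and 2 lower in D2LR-KO against non-stressed WT, and 2 higher and 3 lower in D2LR-KO against D2R-KO. Against stressed WT 7 were higher and 3 lower in D2R-KO, where 1221 of 15655 genes were higher and 1160 lower. In D2LR-KO 5 were higher and 4 lower, where 1139 of 15640 genes were higher and 1075 lower. Ndufb11 turned to 0.23 in stressed against non-stressed WT, Ndufs1 to -0.034 in D2LR-KO against stressed WT and Ndufa4l2 to -0.11 in D2LR-KO against non-stressed WT. The surroundings of the members' spots had 0.359 to 0.689 of the spot's brightness at the median, the most on the non-stressed WT array. There they reached up to 1.01 of the spot. Over all genes the medians were 0.658 to 0.756, and the log2 brightness of spot and surroundings correlated at 0.866 to 0.955 (Pearson r). Local background was thus not independent of the spot's signal. Over all genes, median scaling turned the share of higher among 1.5-fold calls in stressed against non-stressed WT to 14.0%, against 47.3%, in D2R-KO against stressed WT to 83.1%, against 51.9%, in D2LR-KO against stressed WT to 73.4%, against 51.5%, in D2LR-KO against non-stressed WT to 10.7%, against 34.6%, and in D2LR-KO against D2R-KO to 17.1%, against 66.7%. The cause was not tested. No paired analysis was possible because each group has 1 array. Signal over background limits Ndufa3, Ndufc1 and Ndufab1.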
